A study of Mus musculus with 44 samples.

Results

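The effect of deleting microRNA-150 (miR-150) on messenger RNA was measured in activated mouse CD4 T cells cultured without polarizing cytokines, a condition called Th0. The comparison holds 10 of the 44 libraries of the series, namely the 5 titled Th0 KO (miR-150 knockout) and the 5 titled Th0 WT (miR-150 wild type). Both groups are of the strain C57BL/6NTac. Sorted naive CD4 T cells of the spleen were plated at 150000 cells per well on antibody to CD3 with soluble antibody to CD28 and harvested after 3 days. The Th0 group labelled miR-150 KI, with 4 libraries, and the KO and WT groups of Th1 culture (interleukin-12 and antibody to interleukin-4 added) and of Treg culture (TGF-beta 1 and antibody to interferon-gamma added), with 5 libraries each, are used for side-by-side values. The labels give neither the age or sex of the mice, nor how the KO allele was made, nor whether a library is 1 mouse or a pool. P-values here therefore measure the spread between libraries, which may be in part technical.

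MicroRNAs are short RNAs that guide Argonaute proteins to messenger RNAs, mainly through pairing of the seed (bases 2 to 8 of the microRNA) with sites in 3' untranslated regions (3' UTRs). Such pairing lowers the level or the translation of the messenger, so loss of a microRNA is usually read from targets that become more abundant. miR-150 is abundant in resting mature lymphocytes, and the transcription factor gene Myb is its best known target there. Signals through CD3 and CD28 make naive CD4 T cells divide and secrete cytokines such as interleukin-2 and interferon-gamma.

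Reads on the microRNA gene itself were too few to check the genotype. Mir150 (chr7:45121757-45121821 on GRCm38, plus strand, by GENCODE release M21) had 0 counts in all 5 KO libraries, against 0, 0, 1, 2 and 0 counts in WT libraries 1 to 5. These counts lie below the floor of 3 counts used here, and libraries of polyadenylated RNA do not measure the mature microRNA. Gm45552, annotated as an antisense RNA just downstream of Mir150, had 0.685, 0.657, 0.813, 0.786 and 0.392 CPM (counts scaled to a common library size) in KO libraries 1 to 5, against 0.241, 0.648, 0.783, 0.841 and 0.479 CPM in WT libraries 1 to 5. The groups overlapped for Gm45552, with a log2 fold change (KO over WT) of 0.15 ± 0.42 (SE). None of the 15 tested genes beside the locus reached an unadjusted p under 0.05 by edgeR's quasi-likelihood test.

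The sites that pair with the miR-150-5p seed read TTGGGAG in the messenger, and those of Myb, Cbl, Cxcr4 and Egr2, the reported targets with per-library values below, are shown in capitals in 29-base windows on the transcript's strand, with GRCm38 coordinates. The GRCm38 genome was not stated to be the build behind the counts, so these positions serve only to locate the sites.
Myb, first site (chr10:21125305-21125333, minus strand): aattggaaaacttatTTGGGAGaattttg
Myb, second site (chr10:21125204-21125232, minus strand): cttctttttctttttTTGGGAGatttgtg
Cbl (chr9:44147292-44147320, minus strand): tggctttgataatatTTGGGAGattctgt
Cxcr4 (chr1:128588705-128588733, minus strand): tttttttattgactgTTGGGAGtttatgt
Egr2 (chr10:67541327-67541355, plus strand): tttttctacaataggTTGGGAGttgctga
In the Myb and Cbl windows the motif is followed by A, the longer 8-base form of a seed match, and in those of Cxcr4 and Egr2 by T. The other strand of the hairpin gives miR-150-3p, whose seed is shown in capitals and whose sites would read TGTACCA.
mmu-miR-150-3p (RefSeq, GRCm38): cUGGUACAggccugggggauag

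Several libraries stood apart from the others of their genotype. Total counts ran from 81317504 to 135207685 in KO libraries and from 81242275 to 118333012 in WT libraries, so 3 counts correspond to at most 0.0369 CPM in either group. On the first principal component of the 1000 most variable genes, which held 43.5% of the variance, KO 2 lay at 30.2, WT 3 at 15.9 and WT 4 at 14.4, while WT 2 lay at -28.0 and WT 5 at -30.0. The other 5 libraries lay between -6.32 and 2.18 and the genotypes did not separate. For the results that most rest on them, values without KO 2, or without WT 2 and WT 5 (a setting chosen after seeing the data), are given below. Leaving out libraries picked as extreme must shift the estimates that they drive, so these values are a description. The leading genes of the first component included Il24, Gzma and Il13. The second component held 22.1% of the variance and was led by Xist, the RNA that silences an X chromosome in females. Its leading genes also included the interferon-stimulated genes Rsad2, Oasl1, Ifi44, Oasl2, Isg15 and Mx2, with loadings of the opposite sign. The component did not simply follow Xist. KO 3, with high Xist, lay at -5.97 on it, and WT 2, with low Xist, at 6.12. Xist was high in 3 KO and 2 WT libraries, and the Y-linked gene Ddx3y in the other 2 KO and 3 WT libraries, so both groups mixed the sexes. Median Pearson correlations of log2 CPM were 0.969 between KO libraries, 0.955 between WT libraries and 0.963 between a KO and a WT library.

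**Figure D1:**
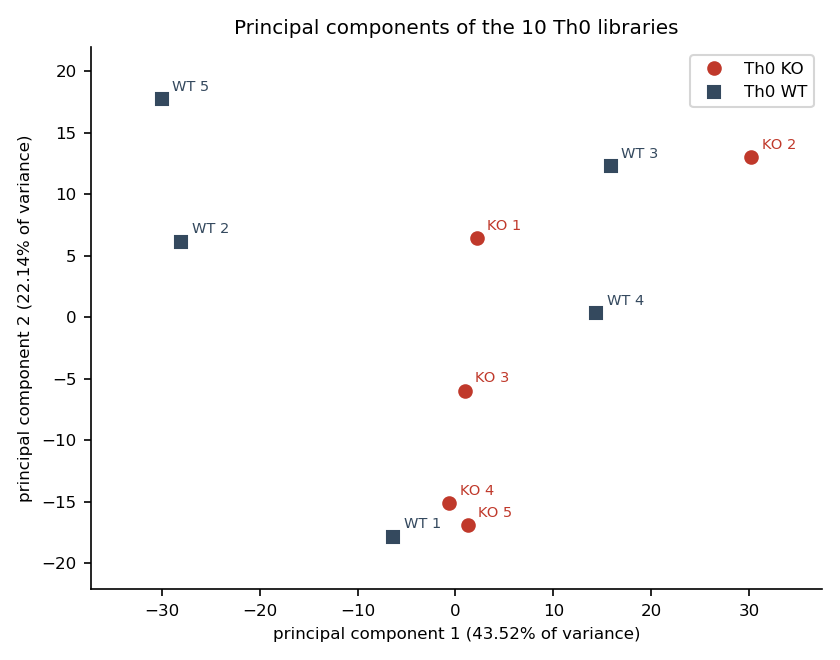
Position of the 5 Th0 KO (circles) and 5 Th0 WT (squares) libraries on the first and second principal components of log2 CPM over the 1000 most variable genes. KO 2 lies at 30.2 on the first component, WT 2 at -28.0 and WT 5 at -30.0, and the 2 groups are interspersed.

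No gene was called between KO and WT in Th0 culture. Of 21873 genes tested with edgeR's quasi-likelihood test, 0 rose and 0 fell at a Benjamini-Hochberg adjusted p under 0.05 (0% called), and every adjusted p was 1. At an unadjusted p under 0.05 there were 1048 genes (4.79%), of which 494 were higher in KO (2.26%) and 554 lower (2.53%). The smallest p, 0.000209, was that of Gzf1, a zinc finger gene. Gzf1 had 83.2, 83.6, 97.0, 92.2 and 89.6 CPM in KO libraries 1 to 5, against 84.5, 53.6, 66.2, 56 and 50.4 CPM in WT libraries 1 to 5. WT 1 lay inside the KO range, and Gzf1, named after its values were seen, had a log2 fold change of 0.52 ± 0.13. DESeq2 called 3 genes (1155 at an unadjusted p under 0.05) and limma-voom 0 (974). The 3 DESeq2 calls were Gm20431, whose counts were 294 in KO 3 and at most 1 in the other 9 libraries, Fam186a, with 50 counts in WT 5, and Ngp, with 3 counts in WT 2 and in WT 4. Each of the 3 thus had nearly all of its counts in 1 or 2 libraries.

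The fit over all 44 libraries gave narrow intervals for most expressed genes. Over 10242 expressed genes (log2 CPM averaging 2 or more in the 10 libraries), the 95% confidence interval of the log2 fold change had a median half-width of 0.32. The estimated change was under 0.5 in size for 95.9% of them and over 1 for 68 genes (0.664%). The median log2 fold change over all genes tested was 0.00.

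**Figure D2:**
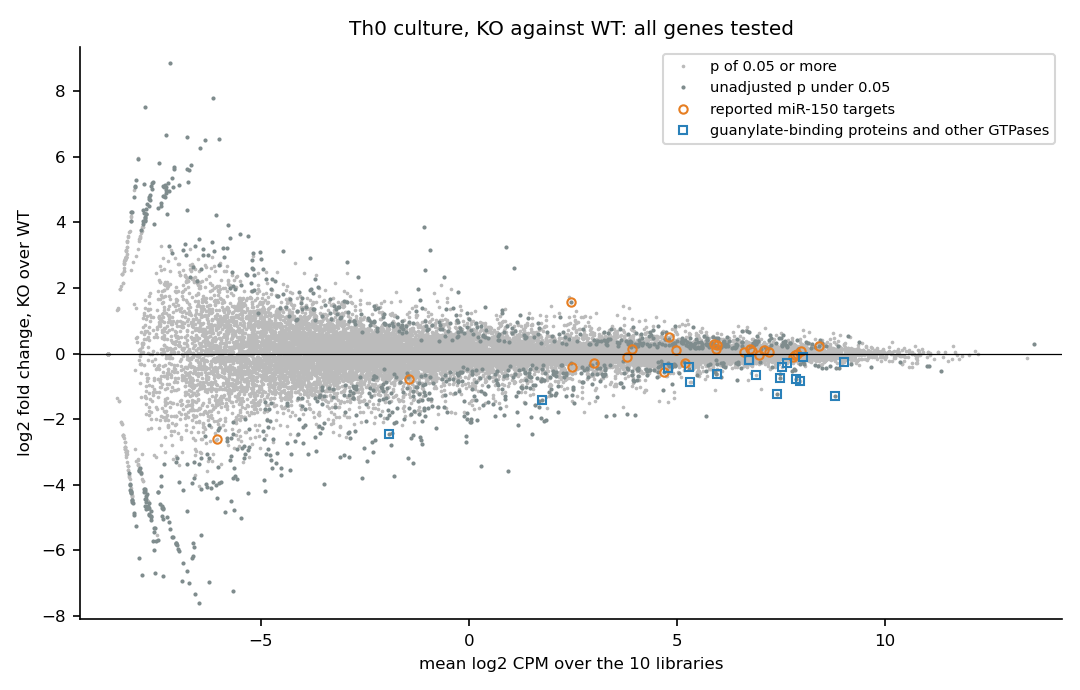
Log2 fold change (KO over WT in Th0 culture) of all 21873 genes tested against the mean log2 CPM of the 10 libraries, with genes at an unadjusted p under 0.05 darker. Reported miR-150 targets (circles) lie around 0, and guanylate-binding proteins and other GTPases (squares) lie below 0, though no gene passed at an adjusted p of 0.05.

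Myb, which encodes a transcription factor of lymphoid progenitors and proliferating T cells, had overlapping values in the 2 genotypes. Its level was 73.3, 55.9, 74.8, 67.5 and 61 CPM in KO libraries 1 to 5, against 62.8, 64.3, 36.2, 40.9 and 66.9 CPM in WT libraries 1 to 5. WT 3 and WT 4 were the lowest, and the other 3 WT libraries lay inside the KO range. Means were 66.5 ± 8.07 CPM in KO and 54.2 ± 14.5 CPM in WT (SD, n = 5 each). The log2 fold change was 0.29 ± 0.23, with a 95% interval of -0.18 to 0.77 (unadjusted edgeR p over 0.05). An exact two-sided permutation test of mean log2 CPM gave p = 0.175, where 0.00794 is the smallest p that 5 libraries against 5 allow. Such permutation p-values of single genes are not adjusted over genes. The KI libraries, which share the WT libraries as their comparison, averaged 42.2 ± 13 CPM (SD, n = 4). Without WT 2 and WT 5, the Myb estimate was 0.51.

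The Myb estimates were higher in the other cultures. Myb averaged 129.97 ± 13.1 CPM in Th1 KO libraries and 81.6 ± 31.9 CPM in Th1 WT libraries, a log2 fold change of 0.67 ± 0.23 (edgeR, adjusted p = 0.507). In Treg culture it averaged 202 ± 78.6 CPM in KO and 94.2 ± 20.6 CPM in WT, and rose by 1.101 ± 0.24 on the log2 scale (edgeR, adjusted p = 0.0286). The difference between the Th0 and Treg effects was -0.81 ± 0.33 and did not pass (edgeR interaction test, adjusted p = 0.890). These p-values are adjusted over all genes tested, whereas those given above for Myb in Th0 culture are not. With this adjustment, the Th0 effect of Myb is not shown to be smaller than the Treg effect.

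Of 29 reported miR-150 targets, 25 passed the filter on low counts. Among these, 14 had a positive and 11 a negative log2 fold change, with a median of 0.05 against 0.00 over all genes tested, and 0 were called. At an unadjusted p under 0.05 there were 2 higher in KO (Cxcr4 and Cbl) and 1 lower (Egr2). The TTGGGAG motif was found in the 3' UTR of 18 of the 25, and with a following A in 6, compared with 15.9% and 4.76% of the 14508 tested genes with an annotated 3' UTR. The shares over all genes were not matched for UTR length, and such sites may have helped to nominate the reported targets. This comparison is therefore a description only.

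Cbl, an E3 ubiquitin ligase that restrains antigen receptor signalling, was the reported target whose groups did not overlap. It had 368, 373, 362, 351 and 398 CPM in KO libraries 1 to 5, against 322, 299, 338, 335 and 279 CPM in WT libraries 1 to 5. Every KO library exceeded every WT library, by a small margin between KO 4 and WT 3, and the log2 fold change was 0.24 ± 0.10 (exact two-sided permutation p = 0.00794). It was 0.16 without WT 2 and WT 5. The share of all tested genes with KO libraries entirely above the WT libraries was 0.375%. In the other cultures Cbl had log2 fold changes of 0.19 ± 0.10 in Th1 and 0.26 ± 0.10 in Treg (edgeR, adjusted p = 0.572 and 0.346).

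Cxcr4, the receptor for the chemokine CXCL12, had the largest estimate among the reported targets, and 1 library carried it. Its level was 3.53, 43.6, 5.25, 4.42 and 6.34 CPM in KO libraries 1 to 5, against 5.03, 3.27, 5.66, 4.46 and 2.56 CPM in WT libraries 1 to 5. KO 2 stood alone, and the other 4 KO libraries overlapped the WT range. The log2 fold change was 1.59 ± 0.52 (exact two-sided permutation p = 0.214), and it was 0.22 without KO 2.

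Egr2, a transcription factor induced by antigen receptor signals, went the other way. It had 28, 21.6, 19.3, 24.3 and 16 CPM in KO libraries 1 to 5, against 18.4, 24.2, 42.7, 43.8 and 32.9 CPM in WT libraries 1 to 5. WT 3 and WT 4 were the highest, and WT 1 and WT 2 lay inside the KO range. The log2 fold change was -0.57 ± 0.26 (exact two-sided permutation p = 0.127). The remaining reported targets had an unadjusted p over 0.05. Foxo1, a factor of naive T cell survival and homing, had a log2 fold change of 0.15 ± 0.17. Foxp1, which maintains quiescence, had -0.11 ± 0.23. Zeb1, a zinc finger repressor, had 0.13 ± 0.16, and Igf1r, the receptor for insulin-like growth factor 1, -0.29 ± 0.30 (-0.08 without WT 2 and WT 5). P2rx7, an ATP-gated channel, had 3.77 to 7.19 CPM in KO libraries and 3.60 to 10.2 CPM in WT libraries, a log2 fold change of -0.40 ± 0.38 that was 0.20 without WT 2 and WT 5. Notch3 and Gab1 were near the floor, at most 0.482 and 0.0548 CPM in KO libraries and at most 0.795 and 0.237 CPM in WT libraries.

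**Figure D3:**
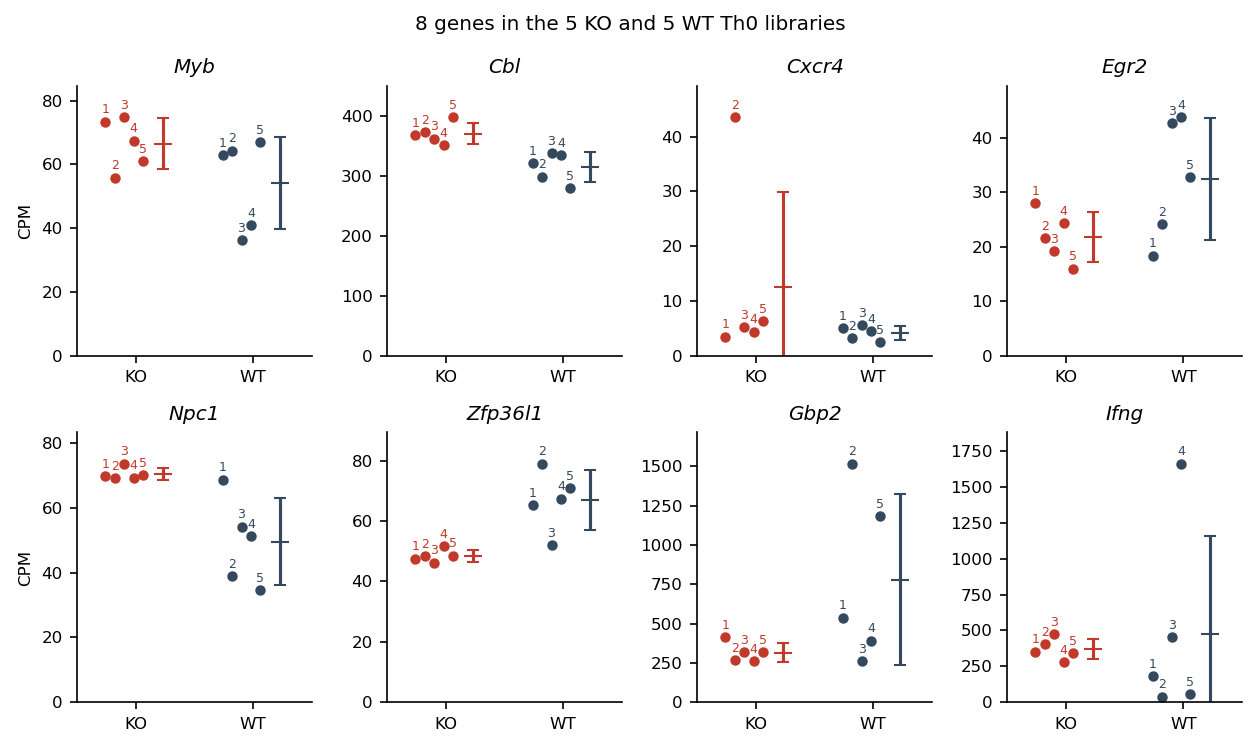
CPM of 8 genes in each of the 5 KO (left) and 5 WT (right) Th0 libraries, numbered as in the labels, with the mean and SD (bars end at 0 where mean minus SD is negative). Cxcr4 is high in KO 2 alone, Gbp2 in WT 2 and WT 5, Ifng in WT 4, and Cbl, Npc1 and Zfp36l1 are the panels without overlap.

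Genes that carry the seed match differed little from genes that lack it. The 2305 tested genes with TTGGGAG in the 3' UTR, searched on the transcript strand, had a median log2 fold change of 0.02, and the 12203 genes without it had 0.00. At an unadjusted p under 0.05, 70 of the 2305 (3.04%) were higher in KO and 59 (2.56%) lower, against 242 (1.98%) and 302 (2.47%) of the genes without it. Compared within strata (10 classes of UTR length by 5 of CPM), the mean log2 fold change of genes with the motif exceeded that of genes without it by 0.04, and by 0.04 for the 8-base form, of whose 691 genes 19 were higher and 25 lower at an unadjusted p under 0.05. The same quantity for the miR-150-3p motif TGTACCA, carried by 1425 genes, was -0.01.

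The per-library version of this measure overlapped between the genotypes. It was 0.0094, 0.024, 0.028, 0.046 and -0.048 in KO libraries 1 to 5, against -0.0082, -0.028, 0.027, -0.033 and -0.015 in WT libraries 1 to 5, each as the stratified difference of log2 CPM from the 10-library mean. The first 4 KO libraries lay above 0 and KO 5 was the lowest of all, while 4 of 5 WT libraries lay below 0. No test was made of this description, since genes in the classes share libraries and UTR composition.

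Libraries of the 2 genotypes did not overlap for 140 of the 21873 genes (0.64%), 82 higher in KO (0.375%) and 58 lower (0.265%). Once predicted genes and pseudogenes were left out of the 10242 expressed genes, these were 39 higher and 4 lower. If the groups do not differ, 5 libraries lie wholly apart from the other 5 with probability 0.00794 per gene. The share over all genes did not exceed this. None was called, so their values are a description and not a result about genotype. The smallest edgeR p among those higher in KO was that of Npc1, which exports cholesterol from lysosomes. Npc1 had 69.6, 69.1, 73.6, 69.3 and 70.1 CPM in KO libraries 1 to 5, against 68.7, 38.9, 54.1, 51.3 and 34.6 CPM in WT libraries 1 to 5. KO libraries lay close together and WT 1 came within 1 CPM of them, and the log2 fold change was 0.51 ± 0.16. Without WT 2 and WT 5 it was 0.28.

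The other 11 of the 12 named genes higher in KO were Cbl, above, and 10 with log2 fold changes between 0.14 (Dusp11, an RNA phosphatase) and 0.61 (Slc25a24, a mitochondrial carrier of ATP-Mg). Emb, which encodes the adhesion protein embigin, had 192, 248, 219, 192 and 208 CPM in KO libraries 1 to 5, against 186, 172, 166, 143.2 and 168 CPM in WT libraries 1 to 5. WT 1 was again the WT library nearest to the KO range, and the log2 fold change was 0.34 ± 0.12. Osbp, a sterol-binding lipid transporter, had a log2 fold change of 0.19 ± 0.08, and Irak1, a kinase of Toll-like and interleukin-1 receptor signalling, 0.23 ± 0.10. Without WT 2 and WT 5 the estimates were 0.32 for Slc25a24, 0.36 for Emb, 0.12 for Osbp and 0.10 for Irak1. Prune1, Mettl25, Tmem241, Tceanc and Tmem81 had log2 fold changes of 0.28, 0.37, 0.38, 0.38 and 0.31.

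The 4 genes lower in KO were Kctd1, Lrrc49, Rad51ap1 and Zfp36l1. Kctd1, a repressor with a BTB domain, had 3.95, 2.76, 3.11, 3.47 and 3.52 CPM in KO libraries 1 to 5, against 5.64, 5.63, 4.55, 5.44 and 5.84 CPM in WT libraries 1 to 5. All WT libraries lay above all KO libraries, with a log2 fold change of -0.69 ± 0.20. The estimate was -0.63 without WT 2 and WT 5, -0.58 in Th1 culture and -0.50 in Treg culture, called in neither (edgeR, adjusted p = 0.507 and 0.346). Zfp36l1, an RNA-binding protein that promotes decay of AU-rich messengers, had 47.6, 48.3, 46.2, 51.7 and 48.5 CPM in KO libraries 1 to 5, against 65.2, 79, 52, 67.4 and 71 CPM in WT libraries 1 to 5. WT 3 came nearest to the KO libraries, and the log2 fold change was -0.47 ± 0.27. Rad51ap1, of homologous recombination, had -0.23 ± 0.13, and Lrrc49 -0.63 ± 0.26 (-0.36 without WT 2 and WT 5).

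Guanylate-binding proteins and related GTPases, which interferon-gamma induces and which attack intracellular pathogens, were among the lists with every estimate on 1 side, with B cell markers and mitochondrial transcripts. All 18 tested had negative log2 fold changes, with a median of -0.64 against 0.00 over all genes tested, and 0 were called. At an unadjusted p under 0.05 there were 6 lower in KO (Gbp4, Gbp2, Gbp2b, Gbp11, Tgtp1 and Tgtp2) and 0 higher. Gbp2 had 414, 266, 319, 262 and 319 CPM in KO libraries 1 to 5, against 539, 1517, 263, 393 and 1185 CPM in WT libraries 1 to 5. WT 2 and WT 5 were far above the rest, and WT 3 lay inside the KO range. The log2 fold change of Gbp2 was -1.30 ± 0.42 (exact two-sided permutation p = 0.0794). Gbp4 had 152, 85.6, 134.8, 120.6 and 133.4 CPM in KO libraries 1 to 5, against 199, 571, 96.5, 121.5 and 494 CPM in WT libraries 1 to 5. The same WT libraries were high, and its log2 fold change was -1.24 ± 0.38 (exact two-sided permutation p = 0.159).

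The 2 WT libraries carried most of this pattern. The median over 16 of these genes of log2 CPM relative to the 10-library mean was -0.12, -0.88, -0.06, -0.17 and 0.12 in KO libraries 1 to 5, against 0.39, 1.01, -0.63, -0.33 and 0.82 in WT libraries 1 to 5. WT 1, WT 2 and WT 5 lay above every KO library, and WT 3 and WT 4 below 4 of them. As WT 2 and WT 5 were the highest libraries for this list, leaving them out was bound to raise its median. Without them, the list's median was -0.14, 5 of 18 estimates were positive and 0 reached an unadjusted p under 0.05. In that setting 2.54% of all genes tested reached it, against 4.79% in the main test. Gbp2 was then -0.34 and Gbp4 -0.15. Ifng itself was at 38.9 and 57.4 CPM in WT 2 and WT 5, and the part of interferon-gamma in the GTPase levels was not tested.

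Other genes of the interferon response were mixed. Of 29 interferon-stimulated genes tested, 19 had positive and 10 negative estimates, with a median of 0.22 and 0 called, and at an unadjusted p under 0.05 there were 0 higher and 2 lower. Irf1, an interferon-induced transcription factor, was among them. It had 196, 115.7, 158, 134.3 and 144.9 CPM in KO libraries 1 to 5, against 196, 367, 148, 140.6 and 305 CPM in WT libraries 1 to 5. WT 2 and WT 5 were again the highest, the other 3 WT libraries were at or near the KO range, and the log2 fold change was -0.63 ± 0.26. Without WT 2 and WT 5 it was -0.11, and the list's median was -0.06, with 12 positive and 17 negative estimates, while without WT 1 that median was 0.77. Oas3, an antiviral sensor of double-stranded RNA, followed other libraries, with 51.1, 43.5, 100.1, 121.1 and 114 CPM in KO libraries 1 to 5, against 171, 19.7, 45.6, 47.8 and 6.45 CPM in WT libraries 1 to 5. WT 1 was the highest and WT 5 the lowest.

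The GTPase genes had the opposite sign in Treg culture. There all 18 estimates were positive, with a median of 0.91, and Gbp3, Gbp5 and Gbp7 were called higher in KO by edgeR, where 0.105% of all genes were called higher. In Th1 culture 16 of 18 were negative, with a median of -0.67 and 0 called, and 9 were lower at an unadjusted p under 0.05, where the share over all genes was 5.25%. Treg culture had 37 genes called in all (0.169%). KI against WT in Th0 culture had 0.512% of genes called, and none of these GTPases. Tested as a difference, the Th0 effect was below the Treg effect at an unadjusted p under 0.05 for 17 of the 18, where the share over all genes was 2.48%, and 0 passed the adjustment. Gbp3, picked for its small interaction p after its values were seen, had 32.1, 34.5, 35.3, 29 and 42.3 CPM in KO libraries 1 to 5 of Th0, against 50.6, 62.4, 24.6, 46.2 and 47.4 CPM in WT libraries 1 to 5. WT 3 was the lowest of all 10 and the other WT libraries were above every KO library. Its mean was 71.2 ± 20.9 CPM in Treg KO and 26.5 ± 8.21 CPM in Treg WT. The interaction of Gbp3 was -1.84 ± 0.34 (edgeR, adjusted p = 0.0923), and that of Gbp2 was -3.04 ± 0.59 (edgeR, adjusted p = 0.0956). The call depended on the setting. Without WT 3 of Th0, Gbp2, Gbp3 and Gbp5 passed (edgeR, adjusted p = 0.022, 0.0134 and 0.0366), while without WT 2 and WT 5 no gene did. DESeq2 called 13 genes in this difference, Gbp2, Gbp3, Gbp4 and Gbp5 among them. Gm20431 and Ngp, whose Th0 counts lay nearly all in 1 or 2 libraries, were also among the 13. No gene was called in the difference between the Th0 and Th1 effects (edgeR, 384 genes or 1.76% at an unadjusted p under 0.05, and 3 called by DESeq2). Those 3 included Ngp and 4930486L24Rik, the latter with 36 counts in KO 3 and at most 2 in the other Th0 KO and WT libraries.

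**Figure D4:**
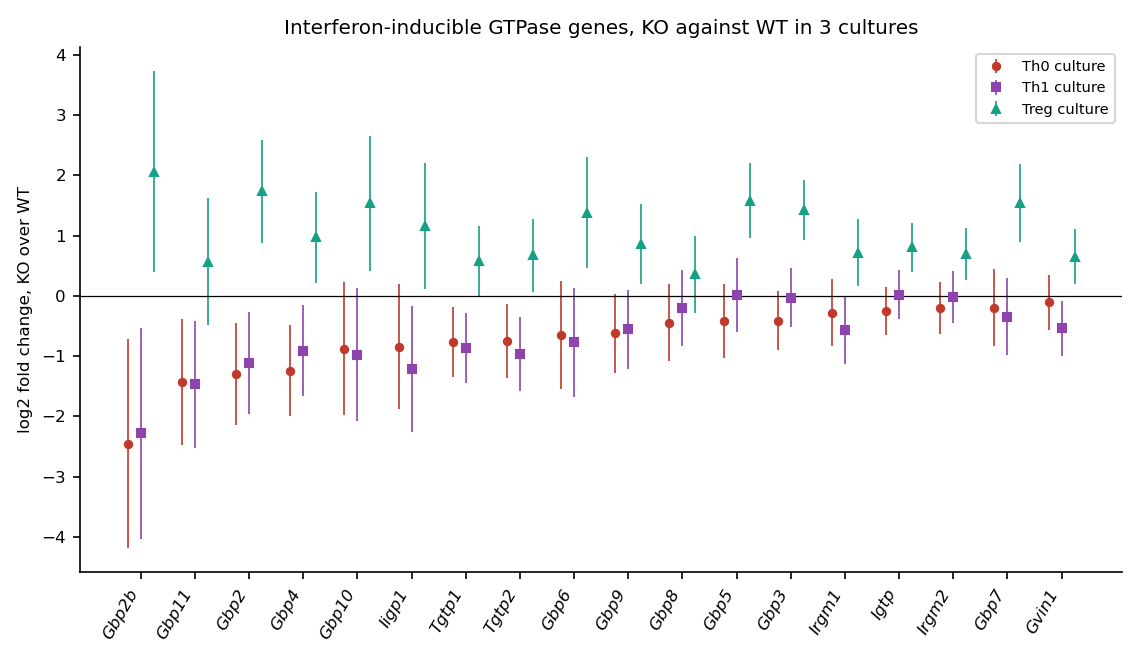
Log2 fold change (KO over WT, with 95% confidence intervals) of the 18 tested guanylate-binding protein and other GTPase genes in Th0, Th1 and Treg culture. All 18 estimates lie below 0 in Th0 and above 0 in Treg culture, and 16 of 18 lie below 0 in Th1 culture.

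Transcription factors induced by the antigen receptor had no call. Of 22 tested, 7 had positive and 15 negative estimates, with a median of -0.19. At an unadjusted p under 0.05 there were 3 lower (Egr3, Egr1 and Egr2) and 0 higher. Using Cd8a as a covariate moved the median to -0.04. A fit leaving out WT 4, KO 2 and KI 3 of each culture (Th0, Th1 and Treg) gave a median of -0.09. These numbers were picked for high Cd8a after seeing the data, so values in this setting are a description. Egr3 had 27, 12.7, 25.6, 30.4 and 18.1 CPM in KO libraries 1 to 5, against 35.4, 60.2, 29.4, 24.5 and 65.4 CPM in WT libraries 1 to 5. WT 2 and WT 5 were the highest, and WT 3 and WT 4 lay inside the KO range. The log2 fold change was -0.92 ± 0.31 (exact two-sided permutation p = 0.0556). It was -0.39 without WT 2 and WT 5. Egr1 had 21.4 to 42.7 CPM in KO libraries and 41.7 to 53.6 CPM in WT libraries, a log2 fold change of -0.48 ± 0.22.

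All 13 transcripts of the mitochondrial genome had negative estimates as well, with a median of -0.37, and at an unadjusted p under 0.05 there were 5 lower and 0 higher. mt-Nd4, a subunit of respiratory complex I, had 1829, 1785, 1713, 1812 and 1997 CPM in KO libraries 1 to 5, against 1916, 2633, 1736, 2203 and 3448 CPM in WT libraries 1 to 5. WT 5 and WT 2 were the highest, and without them the list's median was -0.02 and mt-Nd4 was -0.09. Mitochondrial genes took 2.43% to 3.06% of counts in KO libraries and 2.39% to 4.38% in WT libraries (exact permutation test, two-sided, p = 0.206 and 0.968 after adjustment over 10 library measures). Nuclear genes of oxidative phosphorylation had a median of -0.04 over 22 tested, with 0 at an unadjusted p under 0.05. WT 5 also had the fewest genes with a count, 21656, compared with 22812 to 23415 in KO and 23172 to 23679 in the other WT libraries.

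Several cytokine and lineage genes varied widely among libraries, Ifng and Csf2 within WT and Il2 within KO, and none was called. Ifng, which encodes interferon-gamma, had 354, 404, 474, 281 and 343 CPM in KO libraries 1 to 5, against 182.9, 38.9, 452, 1660.5 and 57.4 CPM in WT libraries 1 to 5. The WT libraries spanned both sides of the KO range, with WT 4 the highest and WT 2 and WT 5 the lowest, and the log2 fold change was -0.37 ± 1.32 (-1.04 without WT 2 and WT 5). Ifng had the largest SD of log2 CPM within WT, 2.21, among genes whose log2 CPM averaged 5 or more. Il2, which encodes the growth factor interleukin-2, had 223, 43.9, 247, 323 and 226 CPM in KO libraries 1 to 5, against 255, 176, 258, 169 and 329 CPM in WT libraries 1 to 5. KO 2 was the lowest, and the log2 fold change was -0.16 ± 0.85 (0.10 without KO 2). Csf2, which encodes GM-CSF, had 53 to 70.6 CPM in KO libraries and 6.03 to 228 CPM in WT libraries, with a log2 fold change of -0.53 ± 0.80 (-1.18 without WT 2 and WT 5).

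Lineage factors overlapped between the genotypes. Tbx21, the Th1 factor, had 46.6 to 89.3 CPM in KO libraries and 58.5 to 84.9 CPM in WT libraries. Its log2 fold change was -0.12 ± 0.76, an SE that draws on the spread of all 44 libraries. Gata3, the Th2 factor, had 70.7, 90.4, 35.3, 37.5 and 35.6 CPM in KO libraries 1 to 5, against 18.5, 19.2, 112.9, 69.3 and 19.7 CPM in WT libraries 1 to 5. WT 3, KO 2, KO 1 and WT 4 were high, and the log2 fold change was 0.17 ± 0.38. It was -0.10 without KO 2 and -0.30 without WT 2 and WT 5. The Th2 cytokine gene Il13, named after its values were seen, had 12.2, 127.2, 6.15, 4.62 and 4.52 CPM in KO libraries 1 to 5, against 0.986, 0.797, 90.1, 71.4 and 1.74 CPM in WT libraries 1 to 5. KO 2, WT 3 and WT 4 were far above the others. Il4 had 0.479 to 6.42 CPM in KO libraries and 0.303 to 4.89 CPM in WT libraries, a log2 fold change of 0.06 ± 0.76 that was -1.02 without KO 2 and -0.44 without WT 2 and WT 5.

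Foxp3, the factor of regulatory T cells, was low in these cultures. It had 0.362, 1.096, 0.689, 0.730 and 0.858 CPM in KO libraries 1 to 5, against 1.16, 1.86, 1.0005, 1.83 and 3.19 CPM in WT libraries 1 to 5. All KO libraries but KO 2 lay below all WT libraries, and the log2 fold change was -1.28 ± 0.57 (exact two-sided permutation p = 0.0159). Izumo1r (folate receptor 4) had -0.58 ± 0.22 and Socs2, a suppressor of cytokine signalling, -1.12 ± 0.47, the other 2 of the 3 genes of the Treg programme at an unadjusted p under 0.05. Without WT 2 and WT 5 the estimates were -0.84 for Foxp3, -0.15 for Izumo1r and -0.63 for Socs2. The median over the 24 members was 0.12, and -0.11 without WT 4, KO 2 and KI 3 of each culture.

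The spread itself was similar in the genotypes. The median SD of log2 CPM over the 10242 expressed genes was 0.196 in KO libraries and 0.202 in WT libraries, and it was smaller in KO for 52.2% of genes. Apart from Xist, the genes of largest SD within KO were Tgm2, Lilr4b, Igkc, Gzma and Lilrb4a. Gzma, a granule protease of killer cells, had 12.9, 219.6, 25.7, 21.7 and 22.2 CPM in KO libraries 1 to 5, against 2.97, 1.49, 61.6, 78.3 and 0.807 CPM in WT libraries 1 to 5. KO 2 was the highest, followed by WT 4 and WT 3. Within WT the genes of largest SD were Ifng, Csf2, Fcer2a, Nrn1, Gzmb and Oas3. Gzmb, the main granzyme of activated T cells, had 1599, 4421, 1278, 1045 and 1626 CPM in KO libraries 1 to 5, against 1156, 276, 2327, 5143 and 353 CPM in WT libraries 1 to 5. WT 4 and KO 2 were the highest, WT 2 and WT 5 the lowest. Nrn1, a cell surface protein linked to T cell tolerance, ran the other way, with 61.4, 9.95, 40.7, 45.1 and 34.7 CPM in KO libraries 1 to 5, against 86.8, 306, 15.9, 28.6 and 281 CPM in WT libraries 1 to 5. WT 2 and WT 5 were the highest and KO 2 the lowest, and the log2 fold change of Nrn1 was -1.91 ± 0.83, against -0.20 without WT 2 and WT 5.

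Programmes of growth and metabolism lay near 0. The median log2 fold change was -0.10 over 30 cell cycle genes, 0.12 over 22 glycolysis genes, 0.00 over 24 genes of cholesterol synthesis, -0.01 over 24 of apoptosis and survival, 0.15 over 21 of adhesion and migration and 0.02 over 22 of microRNA processing. Single genes at an unadjusted p under 0.05 in these lists were Mcm5, a subunit of the replicative helicase, at -0.43 ± 0.19, and Bmf, a BH3-only inducer of apoptosis, at 0.93 ± 0.40. Among glycolysis genes 18 of 22 had positive estimates, led by Aldoc, an aldolase, whose 6.37, 57.8, 6.67, 6.04 and 9.14 CPM in KO libraries 1 to 5 set KO 2 apart. The WT values of Aldoc were 9.75, 5.45, 12, 6.31 and 2.91 CPM, and its log2 fold change was 1.24 ± 0.69, against -0.05 without KO 2. The glycolysis list without WT 2 and WT 5 had a median of -0.05, with 10 positive and 12 negative estimates.

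Other T cell lists gave no call either. Medians were 0.07 over 24 genes of the Th1 programme, 0.33 over 15 of the Th2 programme, -0.06 over 14 of the Th17 programme, -0.01 over 22 naive and quiescence genes and -0.05 over 22 activation and inhibitory receptors. They were -0.10 over 24 secreted cytokines, 0.09 over 29 cytokine receptors and STAT and SOCS genes, -0.19 over 24 chemokines and their receptors, 0.19 over 19 cytotoxic granule genes, -0.06 over 19 genes of MHC class I presentation and 0.07 over 14 stress genes. Most of these medians took both signs over the alternative settings, from -0.17 to 0.25 for the Th1, -0.14 to 0.77 for the Th2 and -0.49 to 0.20 for the Th17 programme. The ranges were -0.28 to 0.29 for secreted cytokines, -0.31 to 0.04 for chemokines and their receptors, -0.05 to 0.77 for cytotoxic granule genes and -0.15 to 0.10 for activation and inhibitory receptors. Members at an unadjusted p under 0.05, beyond those given above, included Ccl20, Ccl1, Btla and Il2rg, all lower in KO. Btla, an inhibitory receptor, had 166 to 233 CPM in KO libraries and 187 to 438 CPM in WT libraries, with WT 2 and WT 5 the highest, a log2 fold change of -0.49 ± 0.24 that was -0.03 without them. Il2rg, the common gamma chain of cytokine receptors, had -0.39 ± 0.17, and -0.05 without WT 2 and WT 5. The chemokine genes Ccl1 and Ccl20 were at most 1.35 and 0.172 CPM in KO libraries, and reached 36.5 and 2.40 CPM in WT 5. Il7r, which encodes the interleukin-7 receptor of resting T cells, had 87.5 to 201 CPM in KO libraries and 31.6 to 105.6 CPM in WT libraries, a log2 fold change of 0.85 ± 0.45 (exact two-sided permutation p = 0.0476), and 0.44 without WT 2 and WT 5.

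**Figure D5:**
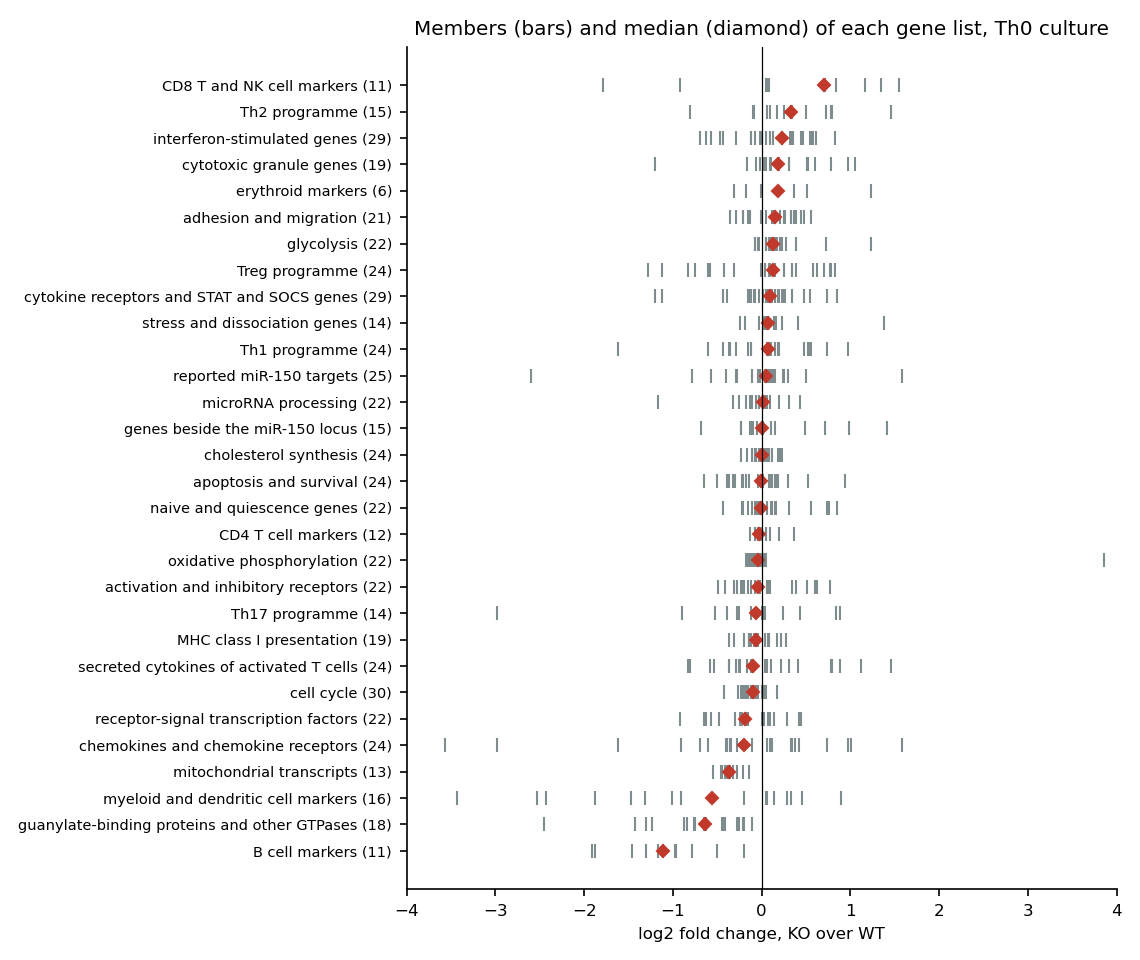
Log2 fold changes (KO over WT in Th0 culture) of the tested members (bars) of 30 gene lists, the number tested in brackets, with the median of each list (diamonds). Medians lie between -1.11 for B cell markers and 0.71 for CD8 T and NK cell markers, and no member was called.

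Markers of other lymphocytes varied among libraries of both genotypes. All 12 CD4 T cell markers exceeded 3 counts in every library, and Cd4 had 357 to 543 CPM in KO libraries and 242 to 567 CPM in WT libraries, with WT 4 the lowest. The co-receptor gene of killer T cells, Cd8a, had 1.27, 20.5, 5.35, 4.002 and 7.76 CPM in KO libraries 1 to 5, against 9.62, 2.78, 6.27, 112.7 and 2.62 CPM in WT libraries 1 to 5. WT 4 stood far above the rest and KO 2 followed. Cd8a and Cd8b1 had negative estimates and the other 9 of 11 markers of CD8 T and NK cells positive ones, with a median of 0.71. That median was 0.09 without WT 2 and WT 5. It was 1.47 with Cd8a, itself a member of the list, as a covariate. The summed level of these 11 markers was 140 to 222 CPM in KO libraries and 67.5 to 441 CPM in WT libraries (exact permutation test, two-sided, p = 0.976). The members that led this sum differed between libraries. Eomes held 137.9 of 201 CPM in WT 1 but 43.3 of 441 CPM in WT 4, where Prf1 and Cd8a led at 119.2 and 112.7 CPM. The sum is therefore not a measure of the amount of CD8 T or NK cells. In bulk RNA, fewer cells of a type and less RNA per cell cannot be told apart.

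B cell markers had no call. All 11 had negative estimates, with a median of -1.11 (-0.35 without WT 4), 0 called and 2 at an unadjusted p under 0.05. Ms4a1, which encodes the B cell surface protein CD20, had 4.44, 11.1, 4.50, 9.42 and 32.4 CPM in KO libraries 1 to 5, against 43.8, 46.8, 2.24, 98.0 and 36.5 CPM in WT libraries 1 to 5. WT 4 was the highest and WT 3 the lowest, below every KO library, and the log2 fold change was -1.88 ± 0.87. The summed level of the 11 markers was 169.97 to 765 CPM in KO libraries and 179.7 to 1469 CPM in WT libraries (exact permutation test, two-sided, p = 0.325). Summed over 16 myeloid and dendritic markers the level was 32.5 to 122.8 CPM in KO libraries and 44.1 to 277 CPM in WT libraries (exact permutation test, two-sided, p = 0.206). In WT 4 and KO 2, the highest library of each genotype, most of this sum came from the MHC class II genes H2-Aa and H2-Ab1. They had 155.8 and 85.6 CPM in WT 4 and 53.8 and 45.8 CPM in KO 2. Of the 16 markers, 7 had positive and 9 negative estimates, with a median of -0.56. That median was -0.21 with a filter of 1 CPM and -0.06 in a fit of the 10 libraries alone. It was -0.01 without WT 4, KO 2 and KI 3 of each culture. The neutrophil genes S100a8 and S100a9 were at or under 3 counts in all 5 KO and 4 of 5 WT libraries. The 7 erythroid markers summed to at most 6.01 CPM in KO libraries and 4.74 CPM in WT libraries. With the level of Cd8a as a term no gene was called and 8.06% of genes reached an unadjusted p under 0.05. Among them were 8 markers of CD8 T and NK cells and 5 of 19 cytotoxic granule genes higher in KO. So were 11 of 13 mitochondrial transcripts, lower in KO. Cd8a is itself a member of that marker list and was highest in WT 4. The term therefore shifts genes that vary with Cd8a, and these counts are not a result about genotype. The part of these cell types in the values above was otherwise not tested.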

How the data were processed

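RNA-seq counts per gene and lane were deposited by the authors in 1 table of 55416 genes, with 2 lane columns for each library, which were summed here. Per the labels' protocols, libraries were stranded, polyadenylated RNA, read as pairs of 150 bases. The submitters' processing notes name the build GRCh38, although the gene identifiers are those of mouse; per the file headers the reads were aligned with STAR, while the counting tool, annotation and strand setting were not given in the sources used here. Gene positions and 3' UTRs came from GENCODE M21 on GRCm38 by gene identifier.

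Counts were fitted with edgeR 4.0.16 (TMM factors, filterByExpr, quasi-likelihood test) as 9 group means over all 44 libraries, leaving 21873 genes, with Benjamini-Hochberg adjustment over all of them and a threshold of 0.05. DESeq2 1.42.0 and limma-voom (limma 3.58.1) were alternatives. Exact permutation tests over libraries used SciPy 1.17.1. No 2 libraries of a group were copies, by a chi-square test of their counts over 20 pairs. The fitting steps were tested on simulated data. Intervals and floors cover counting error or spread between libraries only.

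The gene lists and tests were chosen with earlier results of these data known. Genes named are the reported targets, up to 3 per list by smallest p, up to 12 per direction by smallest p among genes without overlap of the groups with log2 CPM averaging 2 or more, and the 6 of largest SD per genotype with log2 CPM averaging 5 or more. Others are said to have been named after their values were seen.

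Replicate numbers did not pair the Th0 KO with the Th0 WT libraries. Those of the same number had correlations of -0.46 to 0.17 in their deviations from the group means over 10242 genes. Whether a number marks the same mouse in Th0, Th1 and Treg culture was not tested. The main fit of 44 libraries, which gave the Th0 edgeR p-values and SEs, treated all libraries as independent, as did the comparisons between cultures.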

Additional observations from a re-analysis of the deposited data

Results flagged for a closer look

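Each value below stood apart from the other 4 libraries of its genotype in Th0 culture, its gap to the nearest of them, divided by the group's range, being over Dixon's 95% critical value for 5 samples. Of 248 groups of 5 values examined, 29 did so. Chance gives about 1 in 20 such groups, but these include genes named for their large SD within a genotype, so the count is not set against that share.

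KO 2 held 14 of them, all high. They were Cxcr4 at 43.6 CPM, the homing receptor gene S1pr1 at 45.3 CPM and the chemokine receptor gene Ccr4 at 228 CPM. The cytokine receptor genes Il2ra and Ifngr1 were at 2318 and 111.03 CPM, Socs2 at 41.8 CPM and Foxo1 at 130.1 CPM. The glucose transporter gene Slc2a3 was at 411 CPM and Aldoc at 57.8 CPM. The granzyme genes Gzma and Gzmb were at 219.6 and 4421 CPM, the inhibitory receptor genes Lilr4b and Lilrb4a at 347 and 316 CPM, and the transglutaminase gene Tgm2 at 683 CPM.

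KO 5 held 6. The B cell genes Ms4a1 and Ighd were high, at 32.4 and 10.4 CPM, as were Mettl25 at 12.7 CPM, Serpinb6b at 829 CPM and mt-Atp8 at 444 CPM, and Arrb2 was low, at 56.6 CPM. In KO 3, Npc1 was high at 73.6 CPM.

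Among WT libraries, WT 4 was high for Ifng at 1660.5 CPM, Cd8a at 112.7 CPM and the summed myeloid and dendritic markers at 277 CPM. Most of that sum was H2-Aa and H2-Ab1. WT 5 was low for Tmem81, at 4.64 CPM, and for the number of genes with a count, 21656. WT 2 was high for Tapbpl, at 134.2 CPM. WT 1 was high for Oas3, at 171 CPM, and had a TMM factor of 1.01, compared with 0.963 to 0.976 in the other WT libraries. The causes were not tested.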

How the results depend on the processing

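The Th0 comparison of KO with WT had 0 calls in the main test and in 24 of 25 alternatives, and 3 with DESeq2, while the count at an unadjusted p under 0.05 ran from 568 to 2012. The Myb estimate ran from 0.18 to 0.38 with 1 library left out in turn and was not called in any setting, and the stratified seed difference was 0.04 with the 8-base motif. Over 150 named genes and 25 alternatives, 46 genes changed sign in at least 1 of 3732 values, 23 values moved by over 1 SD and 0 changed their call, the smallest adjusted p being 0.136.

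DESeq2 gave higher counts in the other contrasts, namely 19 calls for KO against WT in Th1 culture (0 by edgeR), 166 in Treg culture (37 by edgeR), 649 for KI against WT in Th0 culture (0.512% of genes by edgeR), 3 for the difference of Th0 and Th1 effects and 13 for that of Th0 and Treg effects (0 by edgeR in each). KI against WT had 22 calls with RLE size factors. The Th0 and Treg difference had 0 to 3 calls with 1 Th0 library left out in turn (3 without WT 3). It had 9 without WT 4, KO 2 and KI 3 of each culture, numbers picked for high Cd8a after seeing the data. That setting drops Treg libraries as well. The causes were not tested.

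With the replicate number as a block, KO against WT in Th0 culture had 0 calls over all libraries and 0 over the 10 libraries, and KI against WT had 20. The numbers did not pair the Th0 KO and WT libraries, and 0 of 5 KO libraries correlated best with the WT library of their number. With 5 libraries a group and a spread estimated over all 44 libraries, the median 95% half-width of 0.32 (log2) limits what the comparison can show.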
